A study of Mus musculus with 8 samples.

Results

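The peaks described here lie in annotated repeats whose class is neither LINE, SINE nor LTR: copies of ribosomal, transfer and other small RNA genes, satellites, simple and low-complexity repeats, DNA transposons and a few smaller classes. They were taken from the authors' merged and annotated ATAC-seq peak table as every peak whose detailed annotation named such a repeat, and there were 1263 of them among 74090 merged peaks, or 1.70%. ATAC-seq uses a transposase that cuts accessible chromatin, so the number of sequenced tags in a peak follows how open that stretch of DNA is. The chromatin came from medullary epithelial cells of the C57BL/6 mouse thymus (mTEC), which display self antigens to developing T cells. Thymi had been digested with enzymes, enriched on Percoll and sorted by flow cytometry. All 4 sorted populations were CD45- and Epcam+. The mTEC-IV gate was MHCII low, Itgb4- and L1cam+, the mTEC-III gate was Ly6D+, the mTEC-II gate was MHCII high, and the mTEC-I gate was MHCII low and Itgb4+. Each population had 2 libraries. The labels name neither the age nor the number of mice, and do not state whether the 2 libraries of a population are from different animals. The p-values below thus measure spread among libraries that may be only technical.

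Repeats of these kinds differ in how many near-identical copies the genome holds. Ribosomal RNA genes stand in long tandem arrays whose assembled copies elsewhere are mostly fragments, the major satellite GSAT_MM fills the pericentromeric heterochromatin of mouse chromosomes, and the telomere repeat caps chromosome ends. DNA transposons such as MER2, MER5A and MER20, in contrast, are old, no longer mobile and have diverged, so that a read can more often be placed in a single copy. A read from a multi-copy repeat can be placed in the wrong copy, and the treatment of such reads is not given in the sources used here. A value given for a ribosomal, satellite, transfer RNA or simple-repeat peak is thus the tags that the authors' processing put there, and its copy of origin was not tested.

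The repeat units of the simple repeats are the letters the annotation itself uses, and they are shown because peaks named for opposite strands of a unit were pooled below. In each line the 2 names are the same unit read on the 2 strands.
Telomere unit: (TTAGGG)n in 9 peaks and (CCCTAA)n in 8 peaks.
Guanine or cytosine run: (G)n in 48 peaks and (C)n in 22 peaks.
Alternating pair: (TG)n in 9 peaks and (CA)n in 6 peaks.
The telomere unit is written with its guanine-rich strand first, and the run of a single base was the commonest simple repeat in the table.

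By class, 712 peaks lay in DNA transposons, 208 in simple repeats, 74 in low-complexity sequence, 71 in ribosomal RNA copies, 71 in RMER1A, RMER1B or RMER1C (a class the annotation calls Other), 53 in satellites and 37 in transfer RNA copies. A further 17 were of class Unknown, 10 were small nuclear RNA copies, 5 were scRNA, 2 were helitrons, 2 were 7SLRNA and 1 was 7SK. Of the low-complexity peaks, 2 bore the repeat name LTR82B and the family ERVL, names of LTR elements, and are counted as the annotation classes them. All of them were intronic (596) or intergenic (667), with a median distance of 28.7 kb to the nearest transcription start in the authors' annotation, against 15.5 kb over all merged peaks. Median width was 149 bp, and 159 bp over all merged peaks. Most were weak: the median of the mean deposited signal was 9.21 tags per 10000000 total tags, near the 11.3 of all merged peaks. Ribosomal, satellite and transfer RNA peaks had higher medians, of 47.3, 45.4 and 24.1. Of the 10 peaks with the most tags in the whole table, 9 were satellite (5) or ribosomal (4) copies, and of the 50 with the most tags 31 belonged to the repeats described here.

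The libraries held between 3606436 and 10374623 tags. Deposited values were per 10000000 total tags. For the comparisons they were divided by a trimmed-mean (TMM) factor per library, which sets the bulk of the 74090 peaks equal, and these are called scaled tags. The factor was 0.585 and 0.751 in the mTEC-III libraries and 0.911 to 1.32 in the others. The share of a library's tags that fell in any merged peak was 8.44% and 11% in mTEC-III, against 14.2% to 19.7% in the other 6 libraries, so the 2 scales differ most for mTEC-III. The repeats described here took 3.07% and 3.18% of the tags in peaks in mTEC-IV, 3.64% and 2.63% in mTEC-III, 2.153% and 2.27% in mTEC-II, as well as 1.86% and 2.09% in mTEC-I. Near 13 tuft-cell genes with a peak, summed scaled tags were 814 and 783 in mTEC-IV and 270 to 369 elsewhere, and near 6 basal genes 506 and 505 in mTEC-I and 165 to 307 elsewhere. Near 8 genes of the mature Aire stage they were 547 and 612 in mTEC-II and 236 to 489 elsewhere. The 6 cornified-cell genes with a peak were not highest in mTEC-III, with 199 and 213 in mTEC-IV, 229 and 205 in mTEC-III, 141 and 145 in mTEC-II, as well as 226 and 236 in mTEC-I. Endothelial genes (3 of 6 with a peak) summed to 60.2 and 59.9 in mTEC-I against 7.19 to 25.3 elsewhere, and mesenchymal genes (4 of 6) to 245 and 229 against 104 to 185. Cdh5, Pecam1, Tie1, Col1a2 and Pdgfrb had no peak, and the part of such cells in the mTEC-I results was not tested. No merged peak was assigned to Ptprc, which encodes CD45. Among B-cell genes, Ms4a1 and Pax5 had no peak, while 2 that had a peak summed to 51.9 and 53.5 in mTEC-IV against 3.88 to 19.6 elsewhere, and the part of such cells in the mTEC-IV results was not tested. In these bulk samples a peak open in fewer cells and a peak less open in every cell cannot be told apart.

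**Figure D1:**
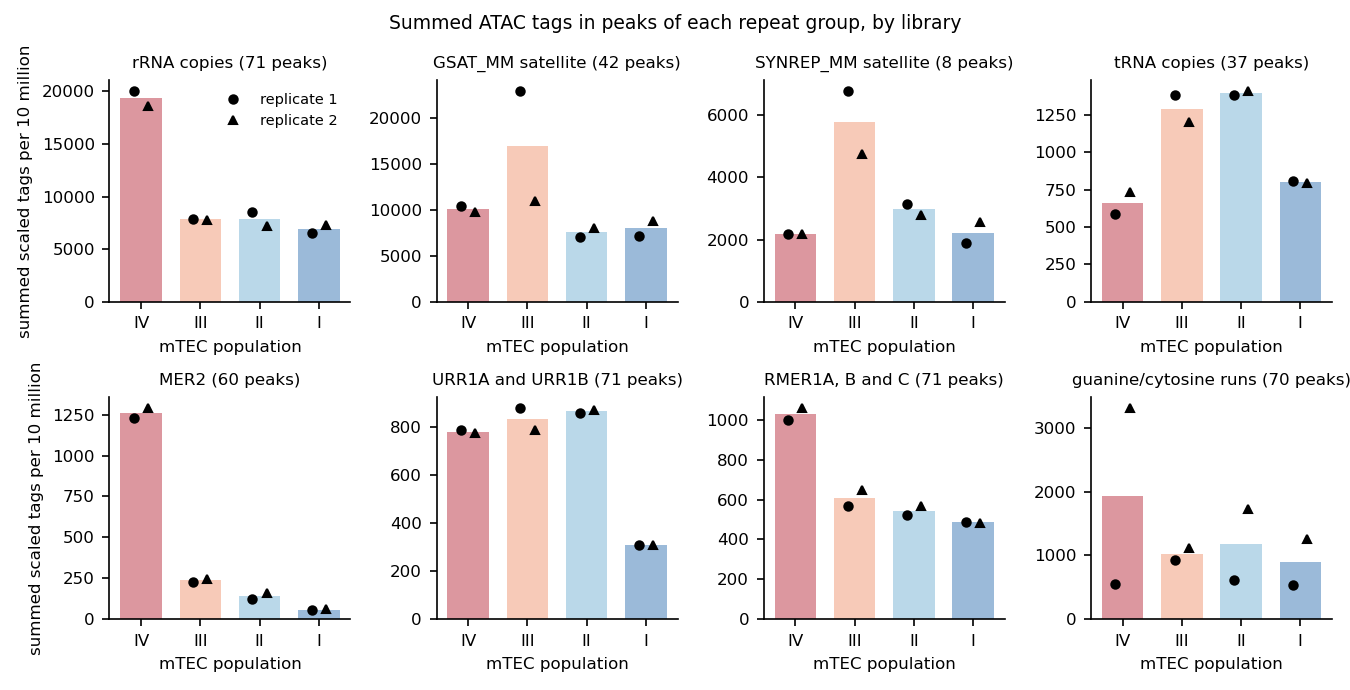
Summed scaled tags (vertical axes, per 10000000 total tags after TMM scaling, each axis from 0) in all peaks of 8 repeat groups, for mTEC-IV, mTEC-III, mTEC-II and mTEC-I from left to right. Bars are means of 2 libraries, circles are replicate 1 and triangles replicate 2. Ribosomal, MER2 and RMER1 sums are highest in both mTEC-IV libraries, URR1A and URR1B sums are lowest in both mTEC-I libraries, and the guanine or cytosine runs differ mainly between replicates.

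Each population was compared with the mean of the other 3 by limma, fitted over 58817 merged peaks that passed a filter of 10 scaled tags in at least 2 libraries. Of the repeat peaks, 960 passed and 303 did not. A peak was called when its Benjamini-Hochberg adjusted p over all tested peaks was under 0.05. Differences are on the scale of log2(scaled tags + 1), which understates the change of weak peaks. In mTEC-IV, 316 of 960 repeat peaks were called higher (32.9%) and 162 lower (16.9%), beside 17.5% higher and 18.4% lower over all tested peaks. In mTEC-III, 56 were higher (5.83%) and 17 lower (1.77%), beside 2.42% and 1.48%. In mTEC-II, 46 were higher (4.79%) and 73 lower (7.60%), beside 5% and 3.54%. In mTEC-I, 110 were higher (11.5%) and 308 lower (32.1%), beside 18.1% and 19.3%. A gene named with a peak is the nearest transcription start in the authors' annotation, which need not be the gene whose intron holds the peak. Comparisons of one population with the mean of the others share libraries, so these counts are not independent of each other.

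The split depended on the scaling and on single libraries. On the authors' own scaling to total tags, the counts were 315 higher and 156 lower in mTEC-IV, 10 and 186 in mTEC-III, 81 and 50 in mTEC-II, as well as 193 and 198 in mTEC-I. That scaling puts the median of all tested peaks at -0.73 (log2) in mTEC-III and 0.46 in mTEC-I, against 0.01 and -0.09 after TMM scaling. With an mTEC-IV library left out, a peak open in mTEC-IV alone cannot reach 10 scaled tags in 2 libraries and so is no longer tested. Without mTEC-IV replicate 1, 70 of 747 tested repeat peaks were higher and 77 lower in mTEC-IV, and without mTEC-IV replicate 2, 83 and 96 of 765. Over all peaks the calls in mTEC-IV were 5879 of 51352 and 7933 of 52911, against 21118 of 58817 with all 8 libraries. For mTEC-I, leaving out its replicate 1 gave 7 higher and 105 lower of 865 tested, and leaving out its replicate 2 gave 7 higher and 121 lower of 866. Over all peaks the calls in mTEC-I were then 5029 of 51219 and 4670 of 51352, against 21998 of 58817. The 308 peaks lower in mTEC-I also became 171 without mTEC-IV replicate 1 and 181 without mTEC-IV replicate 2. Leaving out mTEC-III replicate 1 left no call in mTEC-III by limma, whereas all 8 libraries gave 136 calls by edgeR and 77 by DESeq2; without mTEC-II replicate 1 there was likewise no call in mTEC-II, against 170 by edgeR and 83 by DESeq2 with all 8. Over all peaks these fits left 10 calls in mTEC-III, against 2293, and 1 in mTEC-II, against 5020. Without mTEC-III replicate 2, 68 were higher and 43 lower in mTEC-III, and 63 and 116 in mTEC-II. Leaving out any 1 library of the other populations gave 18 to 36 higher and 4 to 12 lower in mTEC-III. In mTEC-II, leaving out mTEC-II replicate 2 gave 1 higher and 22 lower, and leaving out an mTEC-IV or mTEC-I library gave 24 to 40 higher and 25 to 40 lower.

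**Figure D2:**
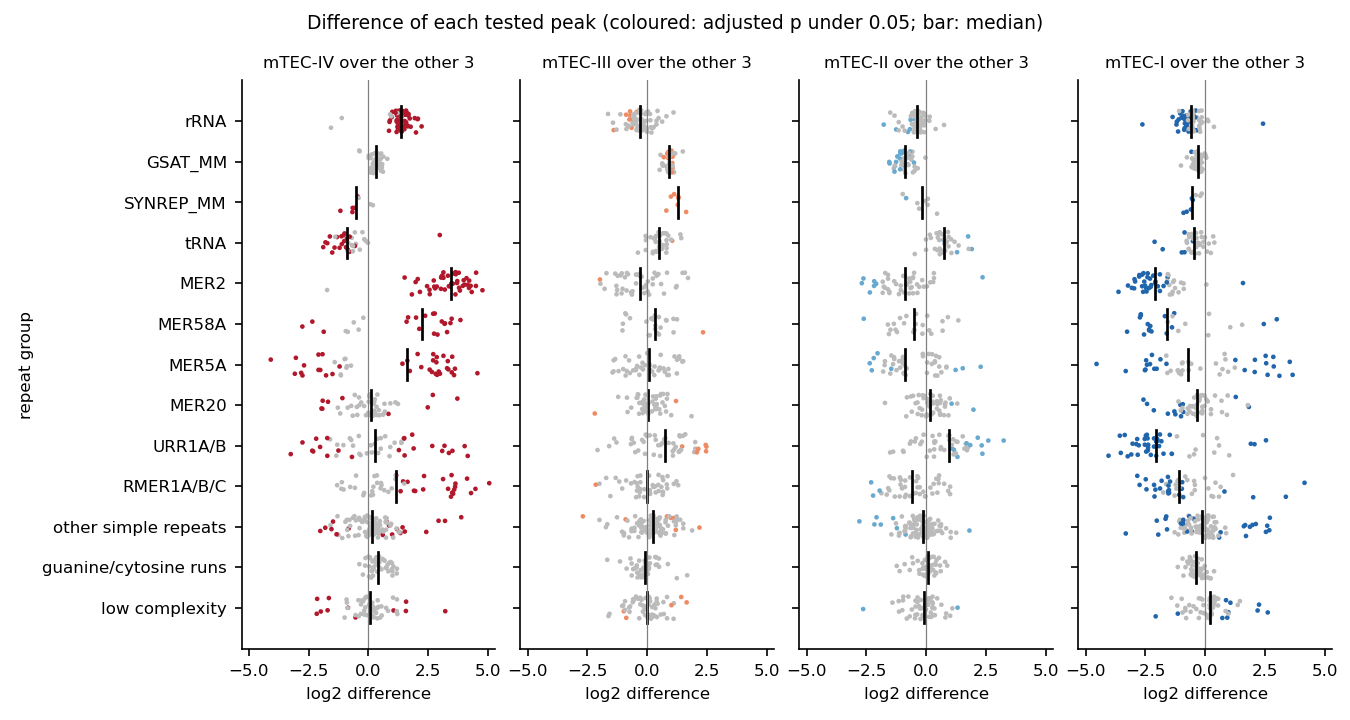
Log2 difference (horizontal axes) of every tested peak between the named population and the mean of the other 3, by repeat group (rows). Coloured points passed an adjusted p of 0.05, grey points did not, and black bars are medians. Ribosomal and MER2 peaks lie to the right in mTEC-IV with medians of 1.37 and 3.47, and transfer RNA peaks to the left with a median of -0.88. A peak high in mTEC-IV alone could pass the filter through mTEC-IV.

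Ribosomal RNA copies had more tags in mTEC-IV, by a similar factor at weak and strong peaks. Summed over the 71 peaks, scaled tags were 20077 and 18620 in mTEC-IV, 7918 and 7798 in mTEC-III, 8498 and 7196 in mTEC-II, as well as 6576 and 7296 in mTEC-I. Both mTEC-IV libraries exceeded all 6 others by more than any replicates differed. Of 69 tested peaks 63 were called higher in mTEC-IV (17.5% over all peaks). The median log2 difference was 1.37, while 67 of 69 were above 0. Over all 71 peaks, filter aside, both mTEC-IV libraries stood above the 6 others at 63 (88.7%), beside 19.2% of all merged peaks. The 64 copies of the large-subunit gene (LSU-rRNA_Hsa) had a median of 1.38, and the 4 copies of the small-subunit gene (SSU-rRNA_Hsa) one of 1.25. By size of peak, the 10 ribosomal peaks with the most tags had a median of 1.26 with a range from 1.18 to 1.64, and the other 59 a median of 1.37 with a range from -1.56 to 2.22. Taken peak by peak across the 8 libraries, the log2 level of a ribosomal peak was correlated with the log2 of the summed other ribosomal peaks. The median r was 0.92 (69 peaks over 8 libraries, whose depth and scaling all peaks share). The 10 strongest peaks held 58.5% to 63.5% of the ribosomal tags per library, so r mostly measures likeness to them.

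The largest ribosomal peak was an LSU-rRNA_Hsa copy at chr5:147072580-147072931 (mm9), intronic and 29.5 kb from the start of Cdk8. It had 2502 and 2316 scaled tags in mTEC-IV, 917 and 958 in mTEC-III, 1029 and 857 in mTEC-II, as well as 825 and 860 in mTEC-I. The difference in mTEC-IV was 1.41 ± 0.11 (SE; limma adjusted p = 1.09e-06). A second copy, at chr11:108873078-108873289 and intergenic, 91.5 kb from Axin2, had 2188 and 2085 in mTEC-IV, 750 and 781 in mTEC-III, 835 and 689 in mTEC-II, as well as 681 and 732 in mTEC-I, a difference of 1.52 ± 0.11 (limma adjusted p = 8.24e-07). These 2 peaks held 21.05% to 23.6% of all ribosomal tags in every library, so their share of the class moved far less than the class sum. The LSU-rRNA_Hsa copy assigned to Filip1l (chr16:57391553-57391727) had 1698 and 1455 in mTEC-IV, 465 and 558 in mTEC-III, 684 and 572 in mTEC-II, as well as 564 and 646 in mTEC-I. A much weaker copy assigned to Tmtc2 (chr10:104675472-104675621) had 62.5 and 75.6 in mTEC-IV, 8.33 and 13.2 in mTEC-III, 27.7 and 16.9 in mTEC-II, as well as 16.8 and 17.3 in mTEC-I, a difference of 2.06 ± 0.29 (limma adjusted p = 8.70e-05). For all 4 copies the mTEC-IV libraries did not overlap any other.

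Copies of the 5S gene, which RNA polymerase III transcribes apart from the large array, numbered 3. The 5S copy assigned to Lingo2 (chr4:35881441-35881612) had 2.18 and 0 scaled tags in mTEC-IV, 3.34 and 5.09 in mTEC-III, 0 and 3.07 in mTEC-II, as well as 13.3 and 13.01 in mTEC-I, where it was called higher by 2.42 ± 0.65 (limma adjusted p = 0.00843). In pairs of populations, 50 of 69 ribosomal peaks were called higher in mTEC-IV over mTEC-III (11.2% over all peaks), 53 in mTEC-IV over mTEC-II (14.2%) and 58 in mTEC-IV over mTEC-I (20.5%). Among mTEC-I, mTEC-II and mTEC-III themselves the class medians were closer, at 0.21 for mTEC-III over mTEC-I, where 9 of 69 were called higher (12.4% over all peaks). In the lists called per library, 60 and 61 of the 71 overlapped a peak of the mTEC-IV libraries, against 31 and 42 in mTEC-III, 42 and 44 in mTEC-II, as well as 54 and 52 in mTEC-I. There the ribosomal peaks had a median deposited fold over the local background of 34.4 to 48.3, against 12.2 to 17.2 over all listed merged peaks.

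**Figure D3:**
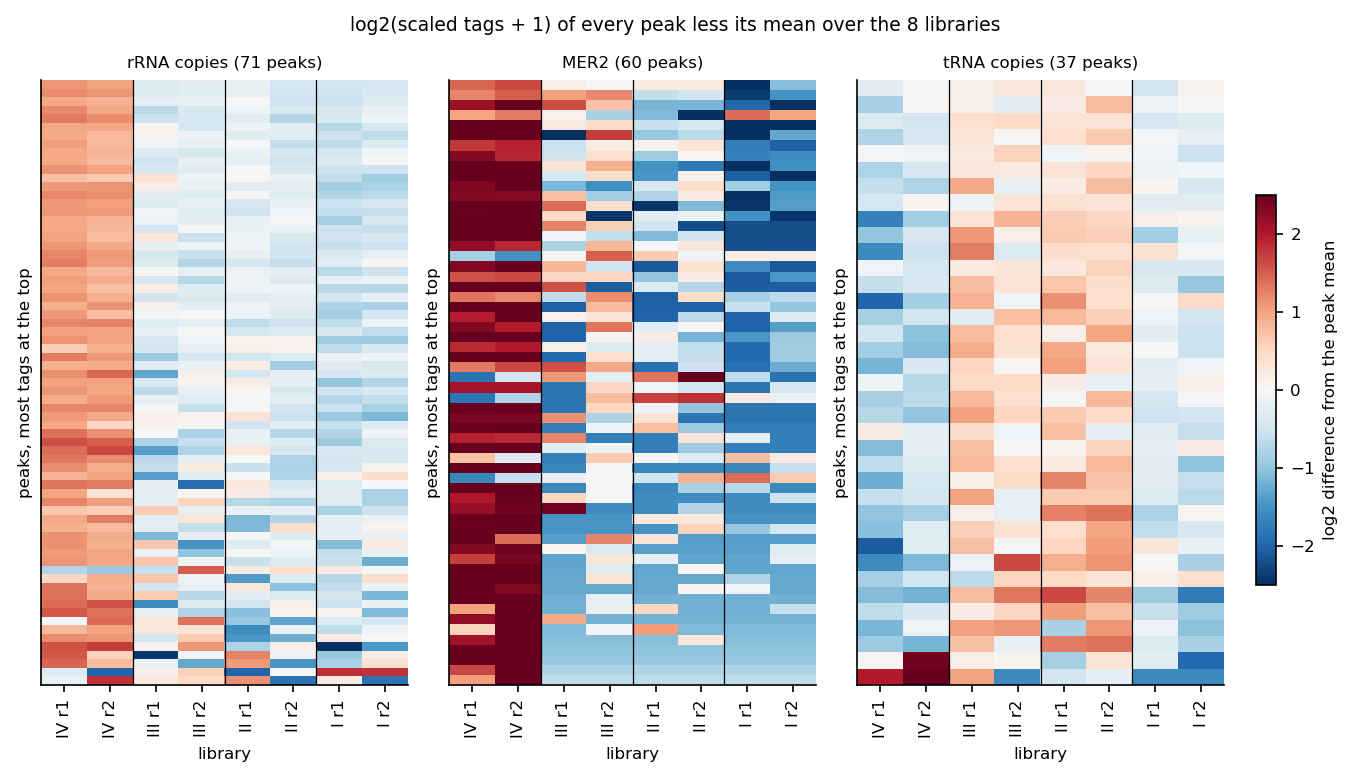
Heat maps of log2(scaled tags + 1) less the peak's own mean over the 8 libraries (colour scale, which saturates at its ends), for every ribosomal, MER2 and transfer RNA peak (rows, most tags at the top) in each library (columns, mTEC-IV at the left of each panel). The mTEC-IV columns are high in nearly all ribosomal and MER2 rows, where both mTEC-IV libraries exceed the 6 others at 63 of 71 and 51 of 60 peaks, and low in most transfer RNA rows.

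Genes for making ribosomal RNA showed few differences. Tags were summed per gene over peaks within 10 kb of its start, and 17 of 20 listed genes were tested. In mTEC-IV, Ubtf, which encodes an RNA polymerase I factor bound along active ribosomal genes, was called higher, and Npm1, a nucleolar chaperone gene, lower (7.50% of 15008 genes were higher and 9.17% lower). Ubtf had 246 and 260 scaled tags in mTEC-IV, 179 and 189 in mTEC-III, 175 and 159 in mTEC-II, as well as 187 and 157 in mTEC-I, a difference of 0.54 ± 0.11 (limma adjusted p = 0.00156). Npm1 had 123 and 99.6 in mTEC-IV, 186 and 172 in mTEC-III, 167 and 146 in mTEC-II, as well as 115 and 137 in mTEC-I. It was also called higher in mTEC-III (0.46 ± 0.13, limma adjusted p = 0.0463; 2.08% of genes were higher there). The list's median difference in mTEC-IV was 0.15, beside 0.01 over all genes. With only peaks within 1 kb of the start, 1 call remained in the list over the 4 comparisons, against 3.

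Satellite peaks included the strongest single peaks in the table, and their sums were highest in mTEC-III after TMM scaling, mainly in replicate 1. The 42 GSAT_MM peaks summed to 10454 and 9731 scaled tags in mTEC-IV, 22998 and 10998 in mTEC-III, 7076 and 8057 in mTEC-II, as well as 7209 and 8798 in mTEC-I. The 8 SYNREP_MM peaks, a second satellite name, summed to 2165 and 2168 in mTEC-IV, 6780 and 4759 in mTEC-III, 3146 and 2795 in mTEC-II, as well as 1881 and 2555 in mTEC-I. The GSAT_MM sums of the 2 mTEC-III libraries thus differed by more than mTEC-III replicate 2 differed from mTEC-IV, while both SYNREP_MM sums in mTEC-III exceeded all others. In mTEC-III, 25 of 51 tested satellite peaks were called higher (2.42% over all peaks), 17 of 41 GSAT_MM and 8 of 8 SYNREP_MM. The class median was 0.94. Over all peaks, both mTEC-III libraries stood above the 6 others at 10 of 42 GSAT_MM and 8 of 8 SYNREP_MM peaks, beside 3.61% of all merged peaks. At all 42 GSAT_MM peaks mTEC-III replicate 2 did not exceed mTEC-III replicate 1.

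These satellite calls rested on the scaling and on single libraries, as did the calls over all peaks. Without mTEC-III replicate 1 nearly all calls in mTEC-III over all peaks were lost, and without mTEC-III replicate 2 they rose. Without mTEC-II replicate 1 nearly all calls in mTEC-II over all peaks were lost. On the authors' scaling to total tags 1 satellite peak was called higher in mTEC-III, and the deposited sums over all 53 satellite peaks were 14500 and 10864 tags in mTEC-IV, 17422 and 11862 in mTEC-III, 12340 and 11415 in mTEC-II, as well as 12035 and 14936 in mTEC-I, which overlap. The class median in mTEC-III was then 0.16, and 0.89 above the median of all peaks, close to the 0.93 above it after TMM scaling. The 25 calls became 0 without mTEC-III replicate 1 and 43 without mTEC-III replicate 2, with all 51 peaks tested in both. The class median in mTEC-III was 0.42 without replicate 1 and 1.49 without replicate 2, with 46 and 49 of 51 above 0. They became 9 without mTEC-II replicate 1, 9 and 12 without either mTEC-I library, and 13 and 14 without either mTEC-IV library.

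The GSAT_MM median in mTEC-II was -0.91, against -0.17 for SYNREP_MM. There 20 satellite peaks were called lower (3.54% over all peaks), 19 of them GSAT_MM. This count was 5 on the authors' scaling, 0 without mTEC-II replicate 1, 7 without mTEC-II replicate 2, and 37 without mTEC-III replicate 2. It was 13 and 10 without either mTEC-IV library and 9 without mTEC-I replicate 2. The ratio of GSAT_MM to SYNREP_MM tags, which no scaling between libraries can move, was 4.83 and 4.49 in mTEC-IV, 3.39 and 2.31 in mTEC-III, 2.25 and 2.88 in mTEC-II, as well as 3.83 and 3.44 in mTEC-I. It was highest in both mTEC-IV libraries, whereas mTEC-III and mTEC-II overlapped. In mTEC-IV, 5 of 8 SYNREP_MM peaks were called lower (18.4% over all peaks), with a median of -0.51, whereas the GSAT_MM median was 0.34.

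The peak with the most tags of all 74090 was the GSAT_MM peak at chr2:98507077-98507233 (mm9), in a stretch with no gene within 1 Mb of it in the authors' annotation (Lrrc4c is the nearest). It had 2533 and 2205 scaled tags in mTEC-IV, 6200 and 3608 in mTEC-III, 3055 and 2577 in mTEC-II, as well as 1943 and 2312 in mTEC-I, a difference of 0.97 ± 0.16 in mTEC-III (limma adjusted p = 0.0108). A SYNREP_MM peak a few kilobases away, at chr2:98502692-98502846, had 776 and 763 in mTEC-IV, 2577 and 1761 in mTEC-III, 1074 and 1045 in mTEC-II, as well as 675 and 936 in mTEC-I, a difference of 1.3 ± 0.14 in mTEC-III (limma adjusted p = 0.00216). Both mTEC-III libraries were above all others at both peaks. The other strong GSAT_MM peak, at chr9:35112959-35113116, had 2290 and 1987 in mTEC-IV, 4965 and 2095 in mTEC-III, 1321 and 1657 in mTEC-II, as well as 1569 and 1875 in mTEC-I. There mTEC-III replicate 2 lay between the 2 mTEC-IV libraries. The SYNREP_MM peak on the X chromosome, at chrX:139917525-139917681, 35.5 kb from Pak3, had 413 and 392 in mTEC-IV, 1242 and 884 in mTEC-III, 626 and 502 in mTEC-II, as well as 318 and 410 in mTEC-I.

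GSAT_MM peaks were crowded at assembled chromosome ends: 14 lay in chr9:3000184-3036630, 9 in chr11:3000371-3004781 and 4 in chr4:3016946-3018082, the first assembled bases of those chromosomes, next to the centromere. The chromosome 9 cluster held 4267 and 3291 deposited tags in mTEC-IV, 4366 and 2764 in mTEC-III, 2295 and 2801 in mTEC-II, as well as 3458 and 4109 in mTEC-I. Within it, the peak at chr9:3029616-3029799 had 253 and 270 scaled tags in mTEC-IV, 455 and 303 in mTEC-III, 142 and 176 in mTEC-II, as well as 202 and 239 in mTEC-I. It was called both higher in mTEC-III (0.83 ± 0.15, limma adjusted p = 0.0149) and lower in mTEC-II (-0.81 ± 0.15, limma adjusted p = 0.00948). GSAT_MM peaks stood only 7.97 to 13.9-fold (median deposited fold per library) above the local background, against 38.9 to 62.8-fold for SYNREP_MM peaks.

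**Figure D4:**
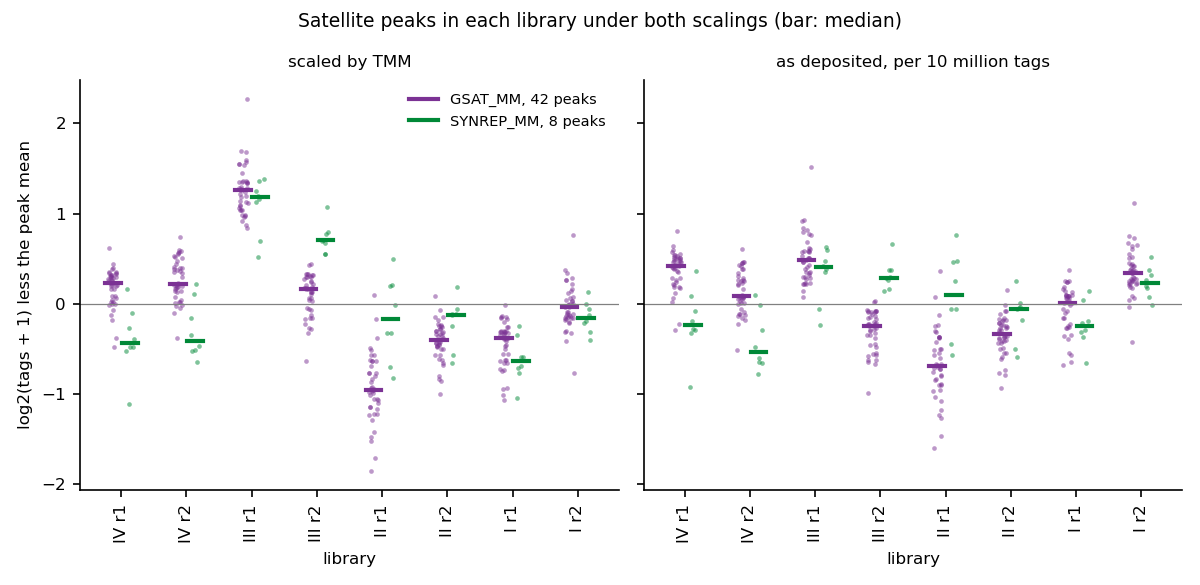
Level of each satellite peak less its own mean, as log2(tags + 1) (vertical axis), in each library (horizontal axis, mTEC-IV at the left), after TMM scaling (left panel) and as deposited per 10000000 total tags (right panel). Points are the 42 GSAT_MM and 8 SYNREP_MM peaks and bars their medians. After TMM scaling mTEC-III replicate 1 is highest for both names, and as deposited the GSAT_MM points of mTEC-III replicate 2 fall below those of mTEC-IV.

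A list of 22 genes for heterochromatin and repeat silencing was set beside the satellites. In mTEC-IV, Dnmt1 (the maintenance DNA methyltransferase), Suv39h2 (a histone H3 lysine methyltransferase of pericentromeric heterochromatin) and Zfp809 (a zinc finger repressor of retroviral sequences) were called lower. These were 3 of the 22, beside 9.17% of all genes. Dnmt1 had 105 and 102 scaled tags in mTEC-IV, 183 and 178 in mTEC-III, 125 and 178 in mTEC-II, as well as 206 and 227 in mTEC-I, a difference of -0.79 ± 0.13 (limma adjusted p = 0.000197). In mTEC-III, Cbx5, which encodes the heterochromatin protein HP1 alpha, was called lower by 0.64 ± 0.15 (limma adjusted p = 0.0204; 1.91% of genes were lower), with 66.3 and 64.0 scaled tags in mTEC-III against 85.4 to 122 in the other 6 libraries. In mTEC-I, Dnmt1, Cbx5 and Trim28, the KAP1 corepressor gene, were called higher (11.7% of genes were higher). List medians lay between -0.09 and 0.03 in the 4 comparisons, beside medians within 0.01 of 0 over all genes.

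Transfer RNA copies had fewest tags in mTEC-IV and most in mTEC-II and mTEC-III. The 37 peaks, at genes for 17 amino acids, summed to 585 and 731 scaled tags in mTEC-IV, 1380 and 1201 in mTEC-III, 1379 and 1412 in mTEC-II, as well as 810 and 795 in mTEC-I. The mTEC-IV and mTEC-I libraries did not overlap the mTEC-III and mTEC-II ones. In mTEC-IV, 21 of 36 tested peaks were called lower (18.4% over all peaks) and 35 of 36 were below 0, with a median of -0.88. Both mTEC-IV libraries lay under the 6 others at 15 of all 37 peaks (40.5%), beside 13.2% of all merged peaks. Calls in mTEC-IV over all peaks also fell without either mTEC-IV library, as given above. The 21 calls became 5 without mTEC-IV replicate 1 and 11 without replicate 2, where the median was -0.65 and -1.05 and 34 of 35 tested peaks were below 0 each time. In mTEC-II, 4 of 36 were called higher (5% over all peaks), with 33 of 36 above 0. Both mTEC-II libraries stood above the rest at 8 of 37, beside 5.48% of all merged peaks.

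By pairs, 25 of 36 transfer RNA peaks were called lower in mTEC-IV over mTEC-II (13.6% over all peaks), 18 in mTEC-IV over mTEC-III (12.3%) and 3 in mTEC-IV over mTEC-I (21%). Between mTEC-II and mTEC-I, 10 were higher in mTEC-II (9.86% over all peaks), and all 36 differences were above 0 (9.51% of all peaks were called lower). The pattern was shared by copies far apart in the genome. Of the 37 peaks, 17 lay between 21.3 and 23.6 Mb on chromosome 13 (chr13:21252632-23559057), the region of the large histone gene cluster, and 20 on 9 other chromosomes. In mTEC-IV, 11 of the 17 were called lower with a median of -0.92, and 10 of the 19 tested elsewhere with a median of -0.84.

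The transfer RNA copy with the smallest p in mTEC-IV was tRNA-Gly-GGY at chr8:113586317-113586626, 6.23 kb from Exosc6. It had 9.44 and 17.4 scaled tags in mTEC-IV, 41.7 and 61.1 in mTEC-III, 50.7 and 47.6 in mTEC-II, as well as 36.7 and 34.7 in mTEC-I, a difference of -1.72 ± 0.26 (limma adjusted p = 0.000128). On chromosome 13, tRNA-Ile-ATT (chr13:21947122-21947307, near Hist1h2bq) had 5.81 and 5.29 in mTEC-IV, 23.3 and 34.6 in mTEC-III, 43.8 and 32.3 in mTEC-II, as well as 6.63 and 3.26 in mTEC-I. It was low in mTEC-IV and mTEC-I alike, and was called higher in mTEC-II by 1.90 ± 0.38 (limma adjusted p = 0.0107). tRNA-Arg-CGY_ near Prss16 (chr13:22112899-22113128) had 7.99 and 8.99 in mTEC-IV, 18.3 and 14.3 in mTEC-III, 41.5 and 44.5 in mTEC-II, as well as 9.29 and 17.3 in mTEC-I. Here mTEC-II alone stood out. tRNA-Tyr-TAC near Trim55 (chr3:19528664-19528915), the strongest transfer RNA peak, had 60.3 and 74.0 in mTEC-IV, 80.0 and 89.6 in mTEC-III, 88.7 and 70.7 in mTEC-II, as well as 52.6 and 77.5 in mTEC-I, and its libraries overlapped. One copy went the other way: tRNA-Ala-GCA at chr1:72080296-72080414 had 10.9 and 15.9 in mTEC-IV, 4.99 and 0 in mTEC-III, 1.16 and 1.54 in mTEC-II, as well as 0 and 0 in mTEC-I.

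Of 20 genes for the RNA polymerase III machinery, which transcribes transfer RNA and 5S genes, 17 were tested. Polr3b, a core subunit, and Gtf3c1, a subunit of the TFIIIC factor, were called higher in mTEC-IV. These were 2 of the 17, beside 7.50% of all genes. Polr3b had 73.1 and 84.7 scaled tags in mTEC-IV, 59.1 and 41.3 in mTEC-III, 47.2 and 47.9 in mTEC-II, as well as 46.1 and 39.9 in mTEC-I, a difference of 0.75 ± 0.20 (limma adjusted p = 0.0111). Gtf3c5, another TFIIIC subunit, had 127 and 127 in mTEC-IV, 190 and 157 in mTEC-III, 159 and 187 in mTEC-II, as well as 84.0 and 68.8 in mTEC-I. It was called lower in mTEC-I by 1.03 ± 0.13 (limma adjusted p = 1.74e-05; 10.3% of genes were lower) and higher in mTEC-III and in mTEC-II (2.35% of genes were higher and 2.07% lower in mTEC-II). The list's median difference in mTEC-IV was 0.07, beside 0.01 over all genes. Over the 4 comparisons limma made 6 calls in this list with peaks within 10 kb of the start, and 0 with peaks within 1 kb.

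DNA transposons made up most of the repeat peaks, with 535 of the 960 tested and 324 of the 478 called in mTEC-IV. In mTEC-IV, 209 of 535 tested were called higher (39.1%) and 115 lower (21.5%), beside 17.5% and 18.4% over all peaks. In mTEC-I, 78 were higher and 214 lower, beside 18.1% and 19.3%. The other side of the mTEC-I comparison holds mTEC-IV, so these falls are not separate from the mTEC-IV rises. Over all 712, both mTEC-IV libraries stood above the 6 others at 252 (35.4%) and below them at 99 (13.9%). Over all merged peaks these shares were 19.2% and 13.2%. Without mTEC-IV replicate 1, 371 were tested, with 16 called higher, 59 lower and a median of -0.36, against 0.25 with all 8 libraries. Without mTEC-IV replicate 2, 389 were tested, with 29 higher, 69 lower and a median of -0.44. Peaks open in mTEC-IV alone cannot pass the filter in these fits. Unlike the ribosomal and transfer RNA peaks, DNA transposon peaks did not move as one. The median r of a peak with the log2 of the summed other peaks of its class was 0.44 across the 8 libraries (535 peaks). The lower quartile was -0.40.

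The MER2 transposon, a non-mobile element of the Tc1/mariner kind, had its highest values in mTEC-IV at most copies. Its 60 peaks summed to 1227 and 1292 scaled tags in mTEC-IV, 227 and 245 in mTEC-III, 126 and 161 in mTEC-II, as well as 55.3 and 59.6 in mTEC-I. The lower mTEC-IV library thus exceeded the highest of the other 6 by far more than any replicates differed. Of the 47 tested peaks 46 were called higher in mTEC-IV (17.5% over all peaks), with a median log2 difference of 3.47. A peak could pass the filter through its 2 mTEC-IV libraries alone, so this count and median depend on the filter. The other 13 did not pass the filter, but over all 60 both mTEC-IV libraries stood above the 6 others at 51 (85.0%), beside 19.2% of all merged peaks. Without mTEC-IV replicate 1 only 9 MER2 peaks could be tested, of which 5 were called higher with a median of 3.16, and without mTEC-IV replicate 2 only 11, of which 7 were called higher with a median of 2.97. In the authors' lists per library, 40 and 47 of the 60 overlapped a peak called in the mTEC-IV libraries, against 0 and 2 in mTEC-III, 0 and 2 in mTEC-II, as well as 4 and 1 in mTEC-I. Of all merged peaks 39.9% and 48.1% were listed in mTEC-IV, 14.2% to 37.3% in mTEC-III and mTEC-II, and 59.1% and 52.5% in mTEC-I. The MER2 peaks were spread over 18 chromosomes, 35 in introns and 25 intergenic, and 25 of the 60 were in no more than 1 list. A peak listed in mTEC-IV alone is in the merged table through its mTEC-IV signal, so the counts above are not free of that choice.

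In mTEC-I, 31 of 47 tested MER2 peaks were called lower (19.3% over all peaks), with a median of -2.09. The other side of that comparison holds mTEC-IV, through which most of the 47 passed the filter. These falls are thus not separate from the mTEC-IV rise. The MER2 sums were lowest in both mTEC-I libraries, where 37 and 30 of the 60 peaks had no tag. In mTEC-III 27 and 13 had none, and in mTEC-II 24 and 18. Pair by pair, 34 of 47 were higher in mTEC-IV over mTEC-III and 43 in mTEC-IV over mTEC-II (11.2% and 14.2% over all peaks). In mTEC-IV over mTEC-I 45 were higher, and 12 in mTEC-III over mTEC-I (20.5% and 12.4%). The MER2 copy near Tnip1 (chr11:54781592-54781753, intergenic, 5.23 kb upstream) had 39.9 and 42.3 scaled tags in mTEC-IV, 0 and 6.11 in mTEC-III, 0 and 0 in mTEC-II, as well as 1.77 and 1.08 in mTEC-I, a difference of 4.50 ± 0.66 (limma adjusted p = 0.000112). The intronic copy assigned to Rell1 (chr5:64311907-64312062) had 43.6 and 50.8 in mTEC-IV, 3.34 and 2.04 in mTEC-III, 1.16 and 2.30 in mTEC-II, as well as 0 and 0 in mTEC-I. The intronic copy assigned to Rnf130 (chr11:49787569-49787697) had 41.4 and 53.4 in mTEC-IV, 6.67 and 8.15 in mTEC-III, 3.46 and 3.84 in mTEC-II, as well as 0 and 0 in mTEC-I, with a difference in mTEC-IV of 3.83 ± 0.49 (limma adjusted p = 4.63e-05). At all 3 copies the mTEC-IV libraries were far from the rest.

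The rest of the MER2_type family was split. Without MER2 itself, 27 of its 76 tested peaks were called higher and 19 lower in mTEC-IV, with a median near 0. Over all 96, both mTEC-IV libraries stood above the 6 others at 27 (28.1%) and below them at 17 (17.7%), beside 19.2% and 13.2% of all merged peaks. Other transposons differed by name. Over all tested peaks 17.5% were called higher and 18.4% lower in mTEC-IV, and 18.1% and 19.3% in mTEC-I. MER58A, of the hAT kind, had 16 of 24 tested peaks called higher and 3 lower in mTEC-IV (median 2.25). A peak of these transposons could also pass the filter through mTEC-IV alone, so such counts and medians depend on the filter. Over all 32, both mTEC-IV libraries stood above the 6 others at 19 (59.4%) and below them at 3 (9.38%), beside 19.2% and 13.2% of all merged peaks. Of the 32, 15 were in no more than 1 per-library list. A peak listed in mTEC-IV alone is in the merged table through mTEC-IV, so these shares are not free of that choice. The 32 peaks summed to 492 and 481 scaled tags in mTEC-IV, 248 and 272 in mTEC-III, 164 and 200 in mTEC-II, as well as 186 and 188 in mTEC-I. MER5A was split, with 24 of 45 called higher and 13 lower in mTEC-IV, and 12 higher and 12 lower in mTEC-I. MER20, the commonest transposon name with 63 peaks, was nearly level: 4 of 51 were called higher and 5 lower in mTEC-IV. The AcHobo family had more called lower in mTEC-IV (13 of 31) than higher (8), and 2 of the 9 tested Tc2 peaks were called lower in mTEC-IV, with a family median of -0.74.

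URR1A and URR1B, rodent elements of the hAT kind, were marked by low values in mTEC-I. Their 71 peaks summed to 790 and 775 scaled tags in mTEC-IV, 882 and 787 in mTEC-III, 860 and 874 in mTEC-II, as well as 311 and 311 in mTEC-I. Both mTEC-I libraries lay far below the other 6. The mTEC-III sums overlapped those of mTEC-IV and of mTEC-II, while both mTEC-II sums exceeded both mTEC-IV sums. Of 48 tested peaks 35 were called lower in mTEC-I (19.3% over all peaks), with a median of -2.05. At 30 of all 71 (42.3%) both mTEC-I libraries lay under the 6 others, beside 12.6% of all merged peaks. Calls in mTEC-I over all peaks also fell without either mTEC-I library, as given above. The 35 became 18 without mTEC-I replicate 1 and 23 without mTEC-I replicate 2, of 43 tested in both, with medians of -2.11 and -2.30. In the other populations 13 were higher and 10 lower in mTEC-IV, beside 17.5% and 18.4% over all peaks. In mTEC-II 10 were called higher (5% over all peaks) and in mTEC-III 6 (2.42%). The URR1B copy near Mir6933 (chr11:117896284-117896597) had 18.2 and 24.9 in mTEC-IV, 85.0 and 56.0 in mTEC-III, 47.2 and 29.2 in mTEC-II, as well as 2.65 and 0.541 in mTEC-I, a difference of -4.04 ± 0.37 in mTEC-I (limma adjusted p = 6.42e-06). The URR1A copy near D8Ertd82e (chr8:37120727-37120936) had 0 and 0 in mTEC-IV, 10.0 and 20.4 in mTEC-III, 27.7 and 28.4 in mTEC-II, as well as 2.65 and 0 in mTEC-I, and was called higher in mTEC-II by 3.24 ± 0.59 (limma adjusted p = 0.00778). The URR1A copy near Calm3 (chr7:17510979-17511119) had 7.99 and 8.46 in mTEC-IV, 45 and 13.2 in mTEC-III, 39.2 and 33.8 in mTEC-II, as well as 2.21 and 0 in mTEC-I.

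Single transposon copies ran in every direction. MER63B near Cmip (chr8:119775157-119775316) had 54.5 and 60.8 scaled tags in mTEC-IV, 6.67 and 6.11 in mTEC-III, 0 and 0 in mTEC-II, as well as 0.887 and 0 in mTEC-I, a difference of 4.76 ± 0.53 in mTEC-IV (limma adjusted p = 1.44e-05). RMER30 near Kcnk5 (chr14:20987422-20987557) and MER82 near Mon2 (chr10:122568908-122569088) were higher in mTEC-IV by 4.65 ± 0.76 and 4.52 ± 0.73 (limma adjusted p = 0.000227 and 0.000199). The largest fall in mTEC-IV by the naming rule was MER5A at chr2:78388980-78389213, 311 kb from Gm14461. It had 1.45 and 2.12 in mTEC-IV, 30.0 and 22.4 in mTEC-III, 38.02 and 47.6 in mTEC-II, as well as 77.3 and 94.9 in mTEC-I, so that it fell by 4.08 ± 0.28 in mTEC-IV (limma adjusted p = 8.24e-07). MER102b near Foxc1 (chr13:31842894-31843130) had the same order, with 1.45 and 3.17 in mTEC-IV, 13.3 and 19.3 in mTEC-III, 30.0 and 25.3 in mTEC-II, as well as 52.2 and 60.7 in mTEC-I.

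A pair of copies called higher in mTEC-II was also called higher in mTEC-III. Charlie2b near Sirt1 (chr10:62808136-62808465) had 0 and 5.29 in mTEC-IV, 41.7 and 30.5 in mTEC-III, 54.2 and 43.8 in mTEC-II, as well as 0.887 and 5.42 in mTEC-I, and its difference in mTEC-III was 2.28 (limma adjusted p = 0.0459). MER5B at chr8:45541645-45541982, far upstream of Fat1, had 10.9 and 16.4 in mTEC-IV, 70.01 and 69.2 in mTEC-III, 92.2 and 83.0 in mTEC-II, as well as 11.9 and 17.3 in mTEC-I. It was called higher in mTEC-II (1.82 ± 0.24, limma adjusted p = 0.00402) and in mTEC-III (1.39 ± 0.24, limma adjusted p = 0.0142). Between these populations themselves, 2 of 960 repeat peaks were called higher in mTEC-III over mTEC-II (0.0136% over all peaks) and 0 lower (0.0017%) by limma, with 46 calls in either direction by edgeR and 12 by DESeq2. Without mTEC-III replicate 2, limma called 67. Copies high in mTEC-I included Tigger7 near 1700025G04Rik (chr1:153910666-153910854), with 2.91 and 3.17 in mTEC-IV, 10.0 and 0 in mTEC-III, 2.30 and 3.84 in mTEC-II, as well as 40.2 and 29.3 in mTEC-I, and MER58A near Tmigd3, MER91A near Ngfr and MER5A near St8sia2, each higher in mTEC-I by 2.85 to 2.99.

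RMER1A, RMER1B and RMER1C, rodent repeats that the annotation leaves unclassified, leaned to mTEC-IV as well. Their 71 peaks summed to 999 and 1060 scaled tags in mTEC-IV, 570 and 646 in mTEC-III, 522 and 567 in mTEC-II, as well as 489 and 485 in mTEC-I, and the mTEC-IV libraries exceeded all others. Of 46 tested, 21 were called higher in mTEC-IV and 20 lower in mTEC-I (17.5% and 19.3% over all peaks). The other side of the mTEC-I comparison holds mTEC-IV, so the 20 are not separate from the mTEC-IV rise. A peak could pass the filter through mTEC-IV alone, so the 21 depend on the filter. Both mTEC-IV libraries stood above the 6 others at 29 of 71 (40.8%), beside 19.2% of all merged peaks. Both mTEC-I libraries lay under the 6 others at 18 (25.4%) and above them at 8 (11.3%), beside 12.6% and 20.9%. Without mTEC-IV replicate 1 limma called 0 of 28 tested peaks higher, with a median of 0.34 against 1.14 with all 8 libraries, and without mTEC-IV replicate 2 it called 2 of 30, with a median of 0.28. RMER1C, intronic and assigned to Sdk1 (chr5:142286750-142286923), had the largest rise in mTEC-IV by the naming rule, 5.05 ± 0.63 (limma adjusted p = 3.59e-05), with 51.6 and 53.9 in mTEC-IV, 0 and 2.04 in mTEC-III, 1.16 and 0 in mTEC-II, as well as 1.77 and 0 in mTEC-I. RMER1A near Atp6v0a4 (chr6:38084754-38084975) was instead open in mTEC-I, with 0 and 1.05 in mTEC-IV, 0 and 0 in mTEC-III, 0 and 2.30 in mTEC-II, as well as 24.7 and 22.2 in mTEC-I.

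Simple repeats other than guanine or cytosine runs were called in both directions. Of 138, 98 were tested, of which 12 were called higher and 6 lower in mTEC-IV, beside 17.5% and 18.4% over all peaks. In mTEC-III 5 were higher and 2 lower, beside 2.42% and 1.48%. In mTEC-II 1 was higher and 7 were lower, beside 5% and 3.54%. In mTEC-I 12 were higher and 16 lower, beside 18.1% and 19.3%. The 17 telomere-unit peaks summed to 306 and 364 scaled tags in mTEC-IV, 472 and 510 in mTEC-III, 201 and 303 in mTEC-II, as well as 282 and 224 in mTEC-I, so that both mTEC-III libraries were above all others. In mTEC-III 15 of 16 tested were above 0, with a median of 0.76, and 1 was called higher. Both mTEC-III libraries exceeded the 6 others at 5 of 17 (29.4%), beside 3.61% of all merged peaks. The order rested on the scaling, since they summed to 351 and 332 deposited tags in mTEC-IV, 276 and 383 in mTEC-III, 241 and 317 in mTEC-II, as well as 372 and 294 in mTEC-I, which overlap. (GA)n near Irak2 (chr6:113611658-113612150) had 92.2 and 70.3 scaled tags in mTEC-IV, 90.001 and 90.6 in mTEC-III, 84.1 and 76.8 in mTEC-II, as well as 17.2 and 22.8 in mTEC-I, so that it fell by 2.02 ± 0.19 in mTEC-I (limma adjusted p = 7.37e-06). (CCCCG)n near Slco4a1 (chr2:180190789-180191068) had 108 and 93.1 in mTEC-IV, 58.3 and 76.4 in mTEC-III, 53.0 and 36.9 in mTEC-II, as well as 15.03 and 17.9 in mTEC-I. (TTTA)n near Ly6c2 (chr15:74915939-74916225) had 90.8 and 90.4 in mTEC-IV, 193 and 125 in mTEC-III, 48.4 and 57.6 in mTEC-II, as well as 71.6 and 58.0 in mTEC-I, a difference of 1.19 ± 0.18 in mTEC-III (limma adjusted p = 0.00973).

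Guanine or cytosine runs differed between replicates rather than populations. Of 44 tested none was called in any population by limma, with 3 at an unadjusted p under 0.05 in mTEC-IV, 2 in mTEC-III, 1 in mTEC-II and 1 in mTEC-I. On recovered reads, edgeR called 17 of 60 higher in mTEC-IV and DESeq2 2 of 70. Scaled tags over the 70 peaks summed to 553 in replicate 1 and 3316 in replicate 2 of mTEC-IV, 923 and 1123 in mTEC-III, 614 and 1729 in mTEC-II, as well as 529 and 1251 in mTEC-I. Replicate 2 was above replicate 1 at 70 of 70 peaks in mTEC-IV, 47 in mTEC-III, 60 in mTEC-II and 60 in mTEC-I. At 39 of 70 (55.7%) it was so in all 4 populations, beside 6.11% of all merged peaks. Of the 70 runs, 59 were in the per-library list of mTEC-IV replicate 2, and 40 were in no more than 1 list. A run listed in 1 library alone is in the merged table through that library. The sums and counts above, mostly those of mTEC-IV, are thus not free of that choice.

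With the replicate number as a term in the fit, the median difference of replicate 2 over replicate 1 was 1.22 for these runs and 0.03 over all tested peaks. None was called at an adjusted p under 0.05 (0% over all peaks), while 32 of 44 had an unadjusted p under 0.05, beside 2461 of all 58817. The largest, the (C)n peak at chr5:104501297-104501425, had 204 and 1617 scaled tags in mTEC-IV, 457 and 494 in mTEC-III, 243 and 843 in mTEC-II, as well as 187 and 617 in mTEC-I. In the lists called per library, 5 and 59 of the 70 runs were present in the mTEC-IV libraries, 0 and 4 in mTEC-III, 1 and 24 in mTEC-II, as well as 8 and 22 in mTEC-I. What differed between the replicate libraries was not tested.

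**Figure D5:**
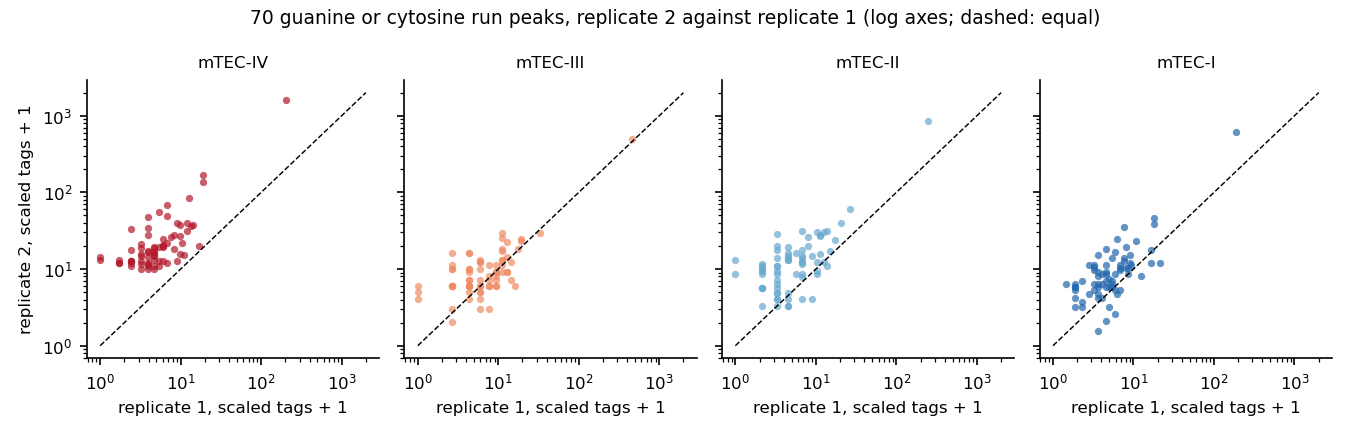
Scaled tags + 1 of the 70 peaks in guanine or cytosine runs, replicate 2 (vertical log axis) against replicate 1 (horizontal log axis), for mTEC-IV, mTEC-III, mTEC-II and mTEC-I. The dashed line marks equal values. Points lie above the line at 70 peaks in mTEC-IV, 47 in mTEC-III, 60 in mTEC-II and 60 in mTEC-I. Of the 70 runs, 59 were in the per-library list of mTEC-IV replicate 2, through which a run could enter the merged table.

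Low-complexity peaks were close to level, summing to 1501 and 1501 scaled tags in mTEC-IV, 1398 and 1587 in mTEC-III, 1516 and 1481 in mTEC-II, as well as 1703 and 1727 in mTEC-I. Of 54 tested, 4 were called higher and 7 lower in mTEC-IV, beside 17.5% and 18.4% over all peaks. In mTEC-I 8 were higher and 2 lower, beside 18.1% and 19.3%. The GC_rich peak of Nfkbia, the gene of an NF-kB inhibitor, lay 0.651 kb from its start (chr12:56592835-56593132) and had 113 and 111 in mTEC-IV, 127 and 117 in mTEC-III, 151 and 105 in mTEC-II, as well as 93.7 and 117 in mTEC-I, which overlap. AT_rich sequence near Lrfn2 (chr17:49155493-49155760) had 8.71 and 4.24 in mTEC-IV, 56.7 and 34.6 in mTEC-III, 32.3 and 31.5 in mTEC-II, as well as 17.7 and 22.2 in mTEC-I, so that it fell by 2.14 ± 0.32 in mTEC-IV (limma adjusted p = 0.000119).

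The small classes held few peaks. Of the 17 Unknown peaks 11 were tested, and 7 were called lower in mTEC-IV and 6 higher in mTEC-I (18.4% and 18.1% over all peaks). MamRep605 near Skil (chr3:30982767-30983051) had 9.44 and 7.41 in mTEC-IV, 19.99 and 16.3 in mTEC-III, 30.0 and 31.5 in mTEC-II, as well as 33.1 and 32.0 in mTEC-I. A 7SLRNA copy, named for the RNA of the signal recognition particle, near Cdc14b (chr13:64317387-64317521) had 21.8 and 24.3 in mTEC-IV, 4.99 and 1.01 in mTEC-III, 2.30 and 1.54 in mTEC-II, as well as 3.98 and 2.71 in mTEC-I, a difference of 2.78 ± 0.56 in mTEC-IV (limma adjusted p = 0.000960). BC1_Mm near Ndufa12 (chr10:93711012-93711259) had 2.18 and 8.46 in mTEC-IV, 21.7 and 14.3 in mTEC-III, 24.2 and 26.1 in mTEC-II, as well as 13.3 and 23.9 in mTEC-I. The strongest U2 copy, named for a spliceosomal RNA, lay near Pecr (chr1:72301594-72301906) and had 28.3 and 29.1 in mTEC-IV, 33.3 and 40.7 in mTEC-III, 36.9 and 63.7 in mTEC-II, as well as 42.0 and 37.4 in mTEC-I, with no call in any population.

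Retroelement peaks were also called in both directions in mTEC-IV. Of the tested LINE peaks 38% were higher and 30.2% lower, of the SINE peaks 24.1% and 19.9%, and of the LTR peaks 22.4% and 34.1%, beside 32.9% and 16.9% of the repeats described here. The difference between these shares was not tested, and peaks of 1 repeat name share sequence and are not independent. Fewer of the repeat peaks (6.33%) than of all merged peaks (10.5%) were in all 8 per-library lists, but 30 of 71 ribosomal (42.3%) and 19 of 53 satellite peaks (35.8%) were.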

How the data were processed

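The ATAC-seq tags were measured in 8 libraries, 2 for each of mTEC-I to mTEC-IV, grouped by sample title. The submitters' processing notes name HOMER, Picard 1.108, bcl2fastq 2.15.0.4 and the build mm9. The aligner and the handling of multi-mapping reads, duplicates and the transposase offset were not given in the sources used here. The authors deposited a merged, annotated peak table whose signal is tags per 10000000 total tags per library. Per the file headers, the authors also called peaks in each library alone, with a normalized signal, a findPeaks score and a ratio (fold) over local background, used here to describe peaks within a list. No per-sample column was left unused (0).

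Deposited values were whole multiples of 0.5 tags in 100% of cases, within a tolerance of 0.0079 to 0.0228 of a step, so read ends were recovered for count tests. On them edgeR called 25503 of 65091 peaks in mTEC-IV. The main test was limma 3.58.1 (R 4.3.3) with a mean-variance trend on log2(deposited tags divided by TMM factors + 1), after a filter of 10 scaled tags in 2 libraries, with Benjamini-Hochberg adjustment over all 58817 tested peaks. Alternatives were edgeR 4.0.16 quasi-likelihood, DESeq2 1.42.0, the authors' scaling, a pseudocount of 5, no filter, each library left out, a replicate block, and, for the gene lists, peaks within 1 kb. The fit was tested on simulated data. Libraries held 3606436 to 10374623 tags, and 1 step of 0.5 tags was worth 0.482 to 1.39 deposited tags, which limits weak peaks.

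Named peaks are, per class of at least 5 members, the 2 with the most tags (1 in smaller classes), per comparison the 6 largest rises and falls with adjusted p under 0.05, a mean of at least 10 tags and no overlap with other libraries, and per comparison and class of at least 20 tested the smallest adjusted p in each direction. Not every one of them is described. Chromosome 18 peaks were counted and not named. Peaks were matched to a per-library list by overlap. The repeat classes, gene lists and markers were chosen with earlier results of these data known. No mm9 genome was used, so no genomic sequence is printed.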

Additional observations from a re-analysis of the deposited data

How the results depend on the processing

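The counts of called repeat peaks in mTEC-IV and the ribosomal, MER2, DNA transposon, transfer RNA, RMER1 and URR1 counts stayed within 1.5 times under the authors' scaling, a pseudocount of 5, no filter, edgeR, DESeq2 and the replicate block. Other counts moved further, and the cause was not tested. On the authors' scaling, mTEC-III had 10 higher (56 in the main setting) and 186 lower (17), mTEC-II 81 higher (46), mTEC-I 193 higher (110) and 198 lower (308), and mTEC-III over mTEC-II 61 calls (2). On it 1 satellite peak was higher in mTEC-III (25) and 5 were lower in mTEC-II (20), and the lists for heterochromatin, ribosomal RNA synthesis and RNA polymerase III had 27, 17 and 18 calls (7, 3 and 6). With only peaks within 1 kb they had 3, 1 and 0 by limma. With a pseudocount of 5, mTEC-III had 92 higher and 46 lower, mTEC-II 72 higher and 152 lower, mTEC-III over mTEC-II 36 calls, and satellites lower in mTEC-II 32. By edgeR, mTEC-III had 118 higher, mTEC-II 103 higher, mTEC-II over mTEC-I 297 calls (197), mTEC-III over mTEC-II 46, and satellites 40 higher in mTEC-III and 34 lower in mTEC-II. By DESeq2, mTEC-III had 9 lower, mTEC-II 27 lower, mTEC-III over mTEC-II 12 calls, and satellites lower in mTEC-II 10. Without the filter, mTEC-I had 174 higher, and mTEC-III over mTEC-II 0 calls by limma. Asking that a listed peak cover at least 0.5 of the merged peak put 9.26% to 46.6% of the repeat peaks in a library's own list, and only scores in the upper 0.5 of a list 6.65% to 21.9%.

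With each library left out in turn, calls ranged from 70 to 345 higher and 77 to 177 lower in mTEC-IV, 0 to 68 and 0 to 43 in mTEC-III, 0 to 63 and 0 to 116 in mTEC-II, and 7 to 116 and 105 to 358 in mTEC-I. Between pairs they ranged from 94 to 356 in mTEC-IV over mTEC-III, 114 to 479 in mTEC-IV over mTEC-II, 220 to 534 in mTEC-IV over mTEC-I, 0 to 67 in mTEC-III over mTEC-II, 72 to 275 in mTEC-III over mTEC-I and 50 to 244 in mTEC-II over mTEC-I. By class they ranged from 44 to 62 for ribosomal, 5 to 46 for MER2, 16 to 222 for DNA transposon and 0 to 22 for RMER1 peaks higher in mTEC-IV. They ranged from 5 to 24 for transfer RNA peaks lower in mTEC-IV, 0 to 43 for satellites higher in mTEC-III, 0 to 37 for satellites lower in mTEC-II and 18 to 36 for URR1 peaks lower in mTEC-I. The counts by class and the replicate term for guanine or cytosine runs were added after seeing the data. A lone library was then assumed to vary like the other populations. Fewer peaks passed the filter in these fits (747 of 1263 repeat peaks without mTEC-IV replicate 1), and peaks open in its population alone could not.

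Over all tested peaks replicate numbers did not pair the libraries: same-numbered libraries correlated in their deviations at -0.014 to 0.0329. The guanine or cytosine runs differed by replicate number. With the replicate block, mTEC-III over mTEC-II had 12 calls, and the other counts of peaks and genes above stayed within 1.5 times.

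Of 1032 called values of named peaks under other settings, 956 kept call and direction, 74 lost the call and 2 reversed, and of 1316 with a library left out 1020 kept it and 296 lost it. The 2 reversals and 1 in an uncalled value were on the authors' scaling: (TTTA)n near Ly6c2 in mTEC-I at 0.034, LSU-rRNA_Hsa near Filip1l in mTEC-I at 0.13, and GC_rich near Nfkbia in mTEC-III at -0.69. With 2 libraries a population, and 1 step worth up to 1.39 deposited tags, weak peaks rest on few reads.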
